A study of Homo sapiens with 6 samples.

Results

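The mitochondrial carriers of solute carrier family 25 were examined in H226 cells depleted of the long noncoding RNA *SWINGN*. The members were taken by name, as every gene called SLC25A followed by a number together with *UCP2*, which gave 41 of 17222 gene names. H226 is a human cell line that the labels describe as squamous lung carcinoma. All 6 libraries came from H226 cells transiently transfected with an antisense oligonucleotide and harvested 48 h later. In 3 libraries the oligonucleotide was the control (ASO_CTRL), and in 3 it was 1 sequence against *SWINGN*, also named LINC00565 (ASO_LINC#3). The comparison asks how carrier transcripts changed with the depletion of this RNA. No label ties the 3 libraries of a group to separate cultures. The study's reporting summary gives biological triplicates for its experiments, save where a legend states something else. The p-values measure the spread between these libraries, and the labels do not say whether it is biological or technical. With 1 oligonucleotide, a response to the loss of *SWINGN* and a response to that sequence cannot be told apart. The level of *SWINGN* itself was not analysed here.

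Mitochondrial carriers are small proteins of the inner mitochondrial membrane, built from repeats of a pair of membrane helices. Each moves a particular metabolite, nucleotide, cofactor or ion between the cytosol and the matrix, usually by exchanging one molecule for another. The family sets what enters and leaves the matrix: ADP and phosphate for ATP synthesis, citrate for lipid synthesis, glutamate and aspartate for the redox shuttle, and iron for heme and iron-sulfur clusters. Nuclear genes encode all of them, and the outer membrane translocase and the small TIM chaperones bring them to the inner membrane.

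Counts assigned to genes ranged from 3686828 in ASO_LINC#3 replicate 3, the shallowest library, to 10546786 in ASO_CTRL replicate 3. The biological coefficient of variation across genes was 0.1593. The labels and the study's account of its results name H226 for this RNA-seq, and its methods text names BJ fibroblasts. The simple-epithelium keratins *KRT8*, *KRT18* and *KRT19* summed to 8080 to 8470 library-scaled read counts (CPM) in ASO_CTRL and to 4920 to 8670 in ASO_LINC#3, with the highest value in replicate 3. Of 6 squamous markers, *KRT5* and *KRT6A* were analysed, with sums of 94.4 to 117 and 63.5 to 78.9 CPM. *KRT6A* was close to 0, with 0, 0 and 1 reads in ASO_CTRL and 14, 5 and 4 in ASO_LINC#3. The 4 mesothelial markers summed to 634 to 834 CPM in ASO_CTRL and 209 to 323 in ASO_LINC#3, mostly through *CALB2*. The fibroblast markers *PDGFRB* and *COL1A1*, 2 of 5 listed, summed to 271 to 386 and to 125 to 141 CPM. The leukocyte marker *CD68*, 1 of 4 listed, was at 1.08 to 1.89 and 2.79 to 6.51 CPM, and the 3 endothelial markers were not analysed here. The part of these shifts in the carrier changes was not tested, and in bulk RNA fewer cells of a kind and less RNA per cell cannot be told apart.

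Of the 41 carriers, 38 had enough reads to be tested, and 3 passed the threshold of an adjusted p below 0.01 with a log2 fold change beyond 0.5. The mitochondrial iron carrier *SLC25A37* rose 1.98-fold. *SLC25A29*, a carrier of basic amino acids, fell, and so did *SLC25A35*, whose substrate in human cells is unsettled. The 3 called carriers were 7.89% of those tested, beside 7.54% of all 14660 genes tested by the quasi-likelihood test of edgeR. By direction, 1 of 38 carriers was called higher beside 4.91% of all genes, and 2 of 38 lower beside 2.63% of all genes. When the adjusted p was allowed to reach 0.05, the same 3 carriers passed, whereas the share over all genes rose to 16.8%.

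The carriers not called covered log2 fold changes from -0.84 to 0.70, and their smallest adjusted p was 0.0641. In 15 tested carriers (39.5%) the 3 ASO_LINC#3 libraries all lay on 1 side of the 3 ASO_CTRL libraries, 5 above and 10 below, beside 36.1% of all genes. The unadjusted p was below 0.05 for 14 carriers (36.8%), beside 32.4% of all genes. The fitted change was positive for 15 carriers and negative for 23. Their median log2 fold change was -0.17, against -0.00272 over all genes, and the median size of the change was 0.319 against 0.31. The summed CPM of all 41 carriers was 3715, 4120 and 4080 in ASO_CTRL and 3728, 3546 and 3812 in ASO_LINC#3. The sums overlapped between the groups, with means of 3972 ± 223 and 3695 ± 136 (SD, n = 3 each).

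**Figure D1:**
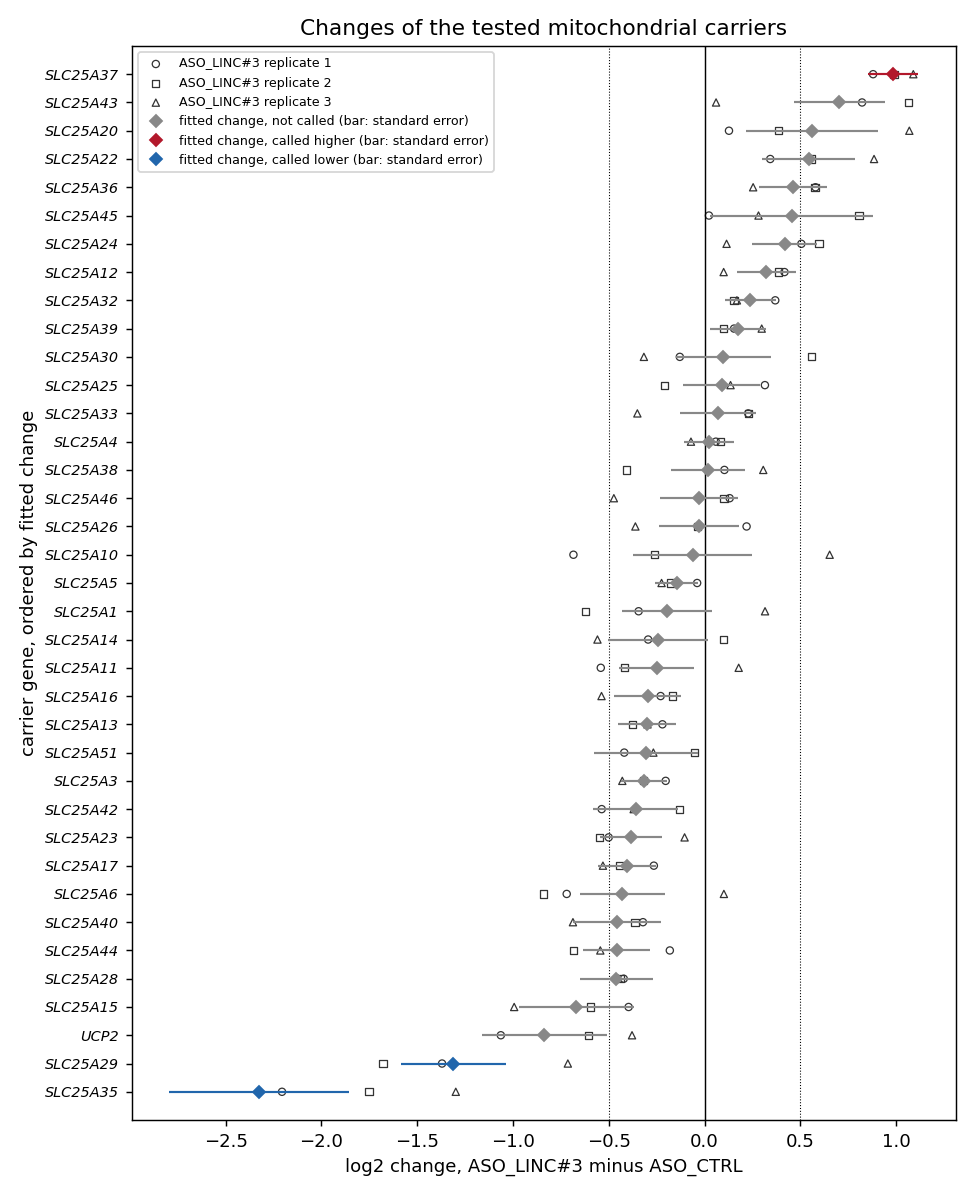
Log2 change of the tested carriers named in the text in ASO_LINC#3 against ASO_CTRL (x axis), with the carriers ordered by their fitted change (y axis). Diamonds with bars are the fitted change and its standard error, open symbols are the 3 ASO_LINC#3 libraries against the ASO_CTRL mean on a log2 CPM scale with a prior count of 2, which draws low genes towards 0, and dotted lines mark a change of 0.5. *SLC25A37* lies to the right with its 3 libraries close together, and *SLC25A29* and *SLC25A35* lie to the left with wider bars.

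*SLC25A37*, mitoferrin-1, imports iron into the matrix and is best known from developing red cells, where much of the iron goes into heme. The gene lies on chromosome 8 from 23386469 to 23432976 on the plus strand (GRCh37). It stood at 170.4, 213.6 and 201.1 CPM in ASO_CTRL and at 357.4, 385.4 and 413.4 CPM in ASO_LINC#3. Every ASO_LINC#3 library was above every ASO_CTRL library. The means were 195 ± 22.2 and 385 ± 28 CPM (SD, n = 3 each). The log2 fold change was 0.98 (SE 0.13, edgeR adjusted p = 0.00077). It stayed called when any 1 library was left out, with log2 fold changes of 0.90 to 1.06 and edgeR adjusted p from 0.000167 to 0.00817.

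*SLC25A28*, mitoferrin-2, is the more widely expressed iron carrier and the close paralog of *SLC25A37*. Its CPM were 12.5, 18.2 and 16.8 in ASO_CTRL and 11.6, 11.5 and 11.4 in ASO_LINC#3. All 3 ASO_LINC#3 libraries were below the lowest control, but the controls were spread and the change was not called (log2 fold change -0.46, SE 0.19, edgeR adjusted p = 0.123). Levels of the pair were set against each other per kilobase of transcript, as the log2 ratio of *SLC25A37* to *SLC25A28*. This ratio was 2.15, 1.94 and 1.97 in ASO_CTRL and 3.33, 3.46 and 3.57 in ASO_LINC#3. The groups did not overlap, and the mean ratio moved from 2.02 ± 0.12 to 3.45 ± 0.12 (SD, n = 3 each), a difference of 1.43 on the log2 scale. The pair was chosen because *SLC25A37* was called, so this difference is a description, and an exact permutation test with 3 against 3 libraries cannot go below a two-sided p of 0.1.

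**Figure D2:**
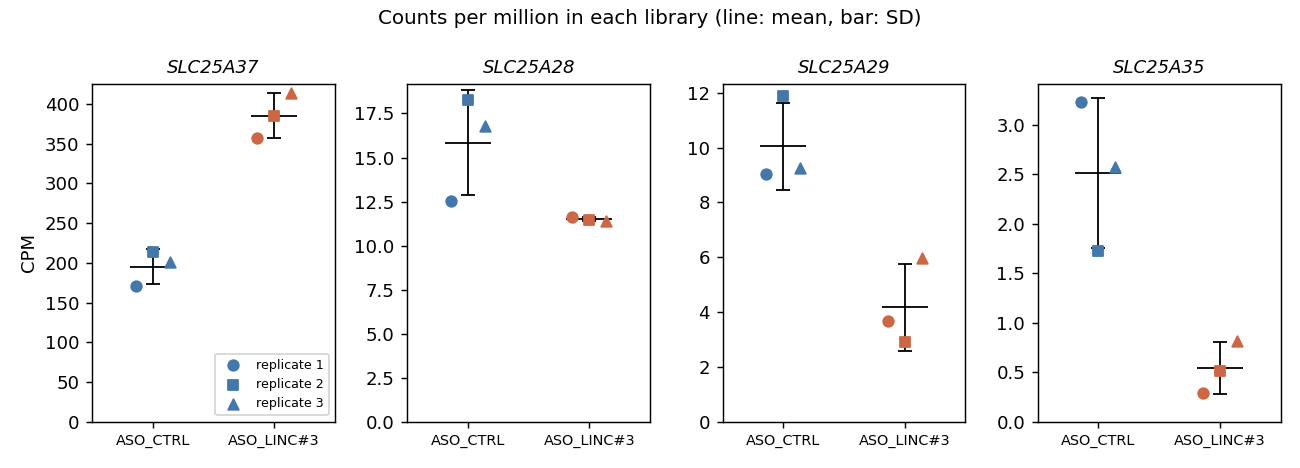
CPM of the 3 called carriers and of *SLC25A28* (y axes, each from 0) in the ASO_CTRL and ASO_LINC#3 libraries (x axes). Symbols mark replicates 1 to 3, the horizontal line is the mean and the bar the SD. The groups are separate in all 4 panels, and ASO_LINC#3 replicate 3 is the nearest to the controls for *SLC25A29* and *SLC25A35*.

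*SLC25A29* moves basic amino acids such as arginine and lysine across the inner membrane and was first described as related to the carnitine carrier. It lies on chromosome 14 from 100757453 to 100772884 on the minus strand (GRCh37). Of the called carriers, it was the one with a promoter in the RefSeq promoter table (assembly GRCh38.p14). The 250 bases before its start, at chr14:100306445-100306694 on the minus strand of that assembly, are given to show the base composition in which the gene begins, 81.2% G and C. Capitals mark the letters CCAAT, read on either strand.
SLC25A29 upstream: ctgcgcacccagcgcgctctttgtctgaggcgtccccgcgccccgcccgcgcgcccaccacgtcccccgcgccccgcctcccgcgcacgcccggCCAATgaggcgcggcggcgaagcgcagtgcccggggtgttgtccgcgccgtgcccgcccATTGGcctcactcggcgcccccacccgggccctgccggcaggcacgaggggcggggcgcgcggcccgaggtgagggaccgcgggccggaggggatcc

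*SLC25A29* overlaps a long noncoding RNA gene on the other strand by 3540 bases. That gene was not analysed here, and the strand setting of the counting was not given, so reads from it may be included. *SLC25A29* had 67, 69 and 97 reads in ASO_CTRL and 25, 17 and 22 in ASO_LINC#3. This gave 9.02, 11.9 and 9.25 CPM against 3.67, 2.91 and 5.96 CPM. The groups did not overlap, but ASO_LINC#3 replicate 3 was well above its group's other libraries. The log2 fold change was -1.31 (SE 0.27, edgeR adjusted p = 0.00875), 2.48-fold lower in ASO_LINC#3. When single libraries were dropped, 5 of the 6 fits lost the call. It held without ASO_LINC#3 replicate 3, and edgeR adjusted p ran from 0.000772 to 0.0492 over the 6 fits.

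*SLC25A35* is one of the less studied carriers. It lies on chromosome 17 from 8191081 to 8198718 on the minus strand (GRCh37). It had 24, 10 and 27 reads in ASO_CTRL and 2, 3 and 3 in ASO_LINC#3, or means of 2.51 ± 0.76 and 0.54 ± 0.26 CPM (SD, n = 3 each). All ASO_LINC#3 libraries were below all controls, at a depth of few reads. The log2 fold change was -2.33 (SE 0.47, edgeR adjusted p = 0.00731). Summed over libraries, 61 reads against 8 give a rate ratio of 0.19 with a 95% exact interval of 0.0787 to 0.399, which covers counting error only. As with *SLC25A29*, 5 of the 6 fits on fewer libraries lost the call, which held without ASO_LINC#3 replicate 3 (edgeR adjusted p 0.00383 to 0.0519 over the 6 fits). The gene overlaps *RANGRF*, on the other strand, by 1439 bases. The strand setting of the counting was not given in the sources used here, so reads from the pair may not be told apart. *RANGRF* was at 10.4 CPM in ASO_CTRL and 8.81 in ASO_LINC#3 and was not called (log2 fold change -0.23, edgeR adjusted p = 0.536).

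The most abundant carriers handle the substrates of ATP synthesis. Per kilobase of the canonical transcript, averaged over all 6 libraries, the adenine nucleotide translocase *SLC25A5* stood at 854 CPM per kb, its paralog *SLC25A6* at 396, the phosphate carrier *SLC25A3* at 170, *SLC25A39* at 69.1 and *SLC25A37* at 62.1. The next in order, *SLC25A22*, was at 25.6, and *SLC25A53*, the lowest, at 0.233. With the median length of the coding transcripts in place of the canonical one, the same 5 genes led, but *SLC25A3* came before *SLC25A6*, so their order rests on the length used. *SLC25A39* and *SLC25A37* changed places between the groups. Their ASO_CTRL means were 64.9 ± 10.6 and 41.7 ± 4.76 CPM per kb, and their ASO_LINC#3 means 73.3 ± 5.32 and 82.5 ± 6.0 (SD, n = 3 each), close to each other beside their SD in the latter group. The cDNA was primed with dT oligonucleotides. Where reads gathered along the transcripts was not analysed here, and a bias to the 3′ end would lower the values per kilobase of long transcripts.

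None of the 3 adenine nucleotide translocases, which exchange cytosolic ADP for matrix ATP, was called. *SLC25A5* was at 1172, 1131 and 1215 CPM in ASO_CTRL and at 1141, 1038 and 1003 CPM in ASO_LINC#3, with 1 ASO_LINC#3 library inside the control range (log2 fold change -0.14, SE 0.11, edgeR adjusted p = 0.404). *SLC25A6* was at 585, 730 and 663 CPM in ASO_CTRL. In ASO_LINC#3 it was at 399 and 367 CPM in replicates 1 and 2 but at 704 CPM in replicate 3, inside the control range (log2 fold change -0.43, SE 0.22, edgeR adjusted p = 0.209). *SLC25A4*, the muscle and heart form, had a change of 0.02 (edgeR adjusted p = 0.927). Per kilobase, *SLC25A6* made up 30.6, 36.2 and 32.5% of the translocase transcripts in ASO_CTRL and 23.5, 23.6 and 38.1% in ASO_LINC#3. *SLC25A5* made up most of the rest, 65.4 ± 2.90% and 69.8 ± 8.19% (SD, n = 3 each), and *SLC25A4* 1.49% and 1.79%. These shares overlapped between the groups for all 3 genes because replicate 3 departed from the other ASO_LINC#3 libraries.

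*SLC25A3* brings in the phosphate that ATP synthase joins to ADP. It was at 1039, 1176 and 1172 CPM in ASO_CTRL and at 979, 903 and 837 CPM in ASO_LINC#3. The groups did not overlap, but the change was small and not called (log2 fold change -0.32, SE 0.12, edgeR adjusted p = 0.0875). *SLC25A3*, *SLC25A5* and *SLC25A6* together held 65.1 to 75.3% of the summed carrier CPM in a library. Reads on pseudogenes bearing their names amounted to 1.61 to 2.35%, 0.989 to 1.57% and 0.401 to 0.808% of their own reads, and how the counting split reads among such copies was not given in the sources used here. *SLC25A5* also overlaps its antisense gene *SLC25A5-AS1*.

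*SLC25A39* is needed for the import of glutathione, the main thiol antioxidant of the matrix, and *SLC25A40* is its paralog. *SLC25A39* was at 92.8, 122 and 93.2 CPM in ASO_CTRL and at 113, 109 and 125 CPM in ASO_LINC#3, with overlap (log2 fold change 0.17, SE 0.15, edgeR adjusted p = 0.442). *SLC25A40* had a log2 fold change of -0.46 (edgeR adjusted p = 0.196), and its groups did not overlap. The log2 ratio of *SLC25A39* to *SLC25A40* per kilobase went from 4.56 ± 0.13 to 5.21 ± 0.31 (SD, n = 3 each), and neither member was called.

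*SLC25A29* shares its class with *SLC25A20*, which exchanges acylcarnitine for carnitine in fatty acid oxidation, and with *SLC25A45*. *SLC25A20* was at 3.32 ± 1.16 CPM in ASO_CTRL and 4.95 ± 1.85 in ASO_LINC#3 (log2 fold change 0.56, SE 0.34, edgeR adjusted p = 0.291). *SLC25A45* was at 1.85 ± 0.83 and 2.39 ± 0.77 CPM (log2 fold change 0.45, SE 0.42, edgeR adjusted p = 0.495). Both pairs of groups overlapped, so only *SLC25A29* was called in this class. The log2 ratio of *SLC25A20* to *SLC25A29* per kilobase was -1.28 ± 0.27 in ASO_CTRL and 0.61 ± 0.31 in ASO_LINC#3 (SD, n = 3 each). By this measure, with canonical lengths, *SLC25A29* was the higher of the pair in every control and the lower in every ASO_LINC#3 library. In ASO_LINC#3 replicate 1 that order rests on the lengths, since the CPM were 3.53 for *SLC25A20* and 3.67 for *SLC25A29*. This pair was set out because *SLC25A29* was called, so the difference is a description. *SLC25A20* had 21 to 27 reads a library. *SLC25A15*, which exchanges ornithine for citrulline in the urea cycle, had a log2 fold change of -0.67 (SE 0.30, edgeR adjusted p = 0.152) at 3.01 and 1.81 CPM. Its groups did not overlap.

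The carriers with values in the next paragraphs, like *SLC25A4*, *SLC25A15* and *SLC25A40* above, were chosen after those values were seen. Several belong to small classes whose members had fitted changes of opposite sign. The aspartate/glutamate carriers *SLC25A12* and *SLC25A13* serve the malate-aspartate shuttle, which brings reducing equivalents into the matrix. *SLC25A12* went from 20.7 ± 0.71 to 25.7 ± 3.05 CPM (log2 fold change 0.32, edgeR adjusted p = 0.179) and *SLC25A13* from 26.1 ± 2.33 to 21.2 ± 1.16 CPM (-0.30, edgeR adjusted p = 0.196; SD, n = 3 each). For each of the pair the groups did not overlap, and neither was called. Their log2 ratio per kilobase was -0.76, -0.57 and -0.64 in ASO_CTRL and -0.01, 0.12 and -0.25 in ASO_LINC#3, so *SLC25A13* exceeded *SLC25A12* in every control and the pair was nearly level in ASO_LINC#3. *SLC25A12* overlaps *HAT1* on the other strand.

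The calcium-regulated ATP-Mg/phosphate carriers set the size of the matrix nucleotide pool. *SLC25A24* had a log2 fold change of 0.42 (edgeR adjusted p = 0.115), *SLC25A23* of -0.38 (edgeR adjusted p = 0.124) and *SLC25A25* of 0.09 (edgeR adjusted p = 0.798). The groups overlapped for all 3. Per kilobase of the canonical transcript, the log2 ratio of *SLC25A24* to *SLC25A23* was below 0 in every control. It was above 0 in ASO_LINC#3 replicates 1 and 2, at 0.40 and 0.54, but at -0.39 in replicate 3. These signs rest on the length used. With the median length of the coding transcripts, the means over all 6 libraries were 14.3 CPM per kb for *SLC25A24* and 53.5 for *SLC25A23*. The pyrimidine nucleotide carriers, which supply mitochondrial DNA and RNA synthesis, had changes of 0.46 for *SLC25A36* (54.5 ± 11.4 to 74.8 ± 9.35 CPM, SD, n = 3 each, edgeR adjusted p = 0.0959) and 0.07 for *SLC25A33* (edgeR adjusted p = 0.846). *SLC25A22*, a glutamate/proton symporter, went from 54.8 ± 18.3 to 80.3 ± 15.5 CPM (SD, n = 3 each; log2 fold change 0.54, edgeR adjusted p = 0.149). The groups of *SLC25A36* and *SLC25A22* did not overlap, but ASO_CTRL replicate 1 was low for both, at 41.3 CPM beside 61.9 and 60.2 for *SLC25A36* and at 33.7 CPM beside 65.6 and 65.3 for *SLC25A22*. Without that library the log2 fold changes were 0.30 and 0.29.

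**Figure D3:**
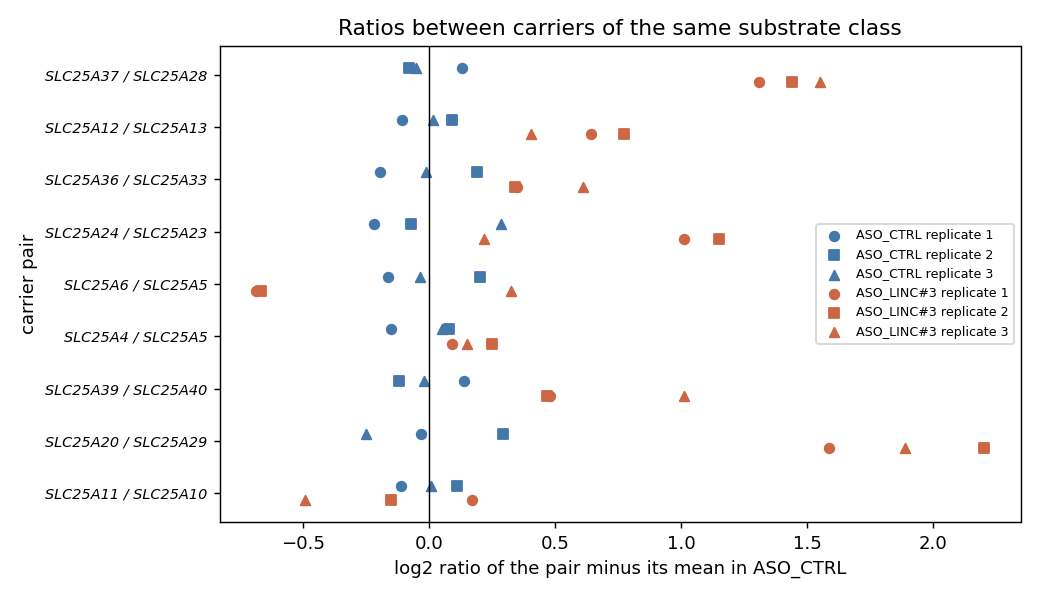
Log2 ratio between carriers of a class per kilobase, as its difference from the mean of the ASO_CTRL libraries (x axis), for 9 pairs (y axis). Blue points are ASO_CTRL and orange points ASO_LINC#3 libraries, and the symbols mark the replicates. The ratios of *SLC25A37* to *SLC25A28* and of *SLC25A20* to *SLC25A29* lie further to the right in all 3 ASO_LINC#3 libraries than any library of the other pairs. Each of these pairs holds a called carrier, so their place is a description. ASO_LINC#3 replicate 3 stands apart for *SLC25A24* to *SLC25A23* and *SLC25A6* to *SLC25A5*.

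The uncoupling-protein group held *UCP2*, *SLC25A14*, *SLC25A30* and *SLC25A27*, which are related to the proton leak protein of brown fat. *UCP2* was at 5.12, 2.93 and 5.34 CPM in ASO_CTRL and at 1.91, 2.74 and 3.25 CPM in ASO_LINC#3 (log2 fold change -0.84, SE 0.33, edgeR adjusted p = 0.0999). This was the largest fitted change among the carriers not called, and its groups overlapped. *SLC25A14* and *SLC25A30* had changes of -0.24 and 0.10, with edgeR adjusted p of 0.558 and 0.822. *SLC25A27* was too low to test, with 7, 7 and 9 reads in ASO_CTRL and 2, 5 and 0 in ASO_LINC#3. *SLC25A52*, at 3 to 8 reads a library, and *SLC25A53*, at 6 to 14 reads, were not tested either.

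*SLC25A43*, a carrier of unknown substrate, had the smallest adjusted p among the carriers not called. It was at 24.2, 21.9 and 31.2 CPM in ASO_CTRL. In ASO_LINC#3 it was at 45.3 and 53.6 CPM in replicates 1 and 2 and at 26.6 CPM in replicate 3, inside the control range (log2 fold change 0.70, SE 0.24, edgeR adjusted p = 0.0641). It lies 13943 bases from *SLC25A5* on the X chromosome, a neighbour whose fitted change had the other sign.

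The remaining carriers gave fitted changes of -0.46 to 0.24 with edgeR adjusted p above 0.08. The citrate carrier *SLC25A1*, the dicarboxylate carrier *SLC25A10* and the oxoglutarate/malate carrier *SLC25A11*, which export carbon or move malate, had log2 fold changes of -0.19, -0.06 and -0.25. For all 3, replicate 3 was the highest of the ASO_LINC#3 libraries and above the control mean. Among the cofactor carriers, the values were -0.41 for *SLC25A17* of peroxisomes, -0.03 for the S-adenosylmethionine carrier *SLC25A26*, 0.24 for the folate and flavin carrier *SLC25A32*, -0.36 for the coenzyme A carrier *SLC25A42* and -0.31 for the NAD carrier *SLC25A51*. *SLC25A44*, which carries branched-chain amino acids, had -0.46, *SLC25A38*, which serves heme synthesis by way of glycine, 0.02, *SLC25A46*, an outer membrane protein that acts in mitochondrial shape, -0.03, and *SLC25A16* -0.30. Their groups did not overlap for *SLC25A16*, *SLC25A17*, *SLC25A32* and *SLC25A44*. In all, 8 tested carriers lay within 0.1 of 0 on the log2 scale (*SLC25A4*, *SLC25A10*, *SLC25A25*, *SLC25A26*, *SLC25A30*, *SLC25A33*, *SLC25A38* and *SLC25A46*). Standard errors of the carriers not called ran from 0.112 to 0.423. Small changes could be missed even for precise carriers. *SLC25A3*, with an SE of 0.12 and groups that did not overlap, had a change of -0.32 and an edgeR adjusted p of 0.0875. A carrier that was not called is therefore not shown to be unchanged.

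ASO_LINC#3 replicate 3 departed from its group along the base composition of the carrier transcripts. GC content of the canonical transcripts ran from 34.3 to 65.3%. Of 15 tested carriers with a GC content of at least 55%, 11 were higher in replicate 3 than in both other ASO_LINC#3 libraries. Of 23 carriers below it, 16 were lower in replicate 3 than in both others. The bound of 55% was chosen after the values were seen. Across the 38 carriers, which share the libraries and are not independent replicates, Pearson's r between GC content and the deviation of replicate 3 was 0.746. It was 0.123 after the trend of all genes with GC content and length was taken out of each library.

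Calls beyond the 3 carriers above depended on this library. Without it, 6 carriers were called, beside 17.2% of all genes in that fit: the 3 above, *SLC25A6* (log2 fold change -0.79, edgeR adjusted p = 0.000537), *SLC25A23* (-0.53, edgeR adjusted p = 0.0084) and *SLC25A43* (0.92, edgeR adjusted p = 0.00121). Over the 6 fits on fewer libraries, edgeR adjusted p ran up to 0.51 for *SLC25A6*, 0.35 for *SLC25A23* and 0.231 for *SLC25A43*. With the GC and length trend removed and all 6 libraries kept, the same 3 carriers were called as in the uncorrected fit. The corrected changes of *SLC25A29* in the 3 ASO_LINC#3 libraries were -1.17, -1.41 and -1.07, closer together than the uncorrected -1.37, -1.68 and -0.71. The part of depth in the departure of replicate 3 was not tested.

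**Figure D4:**
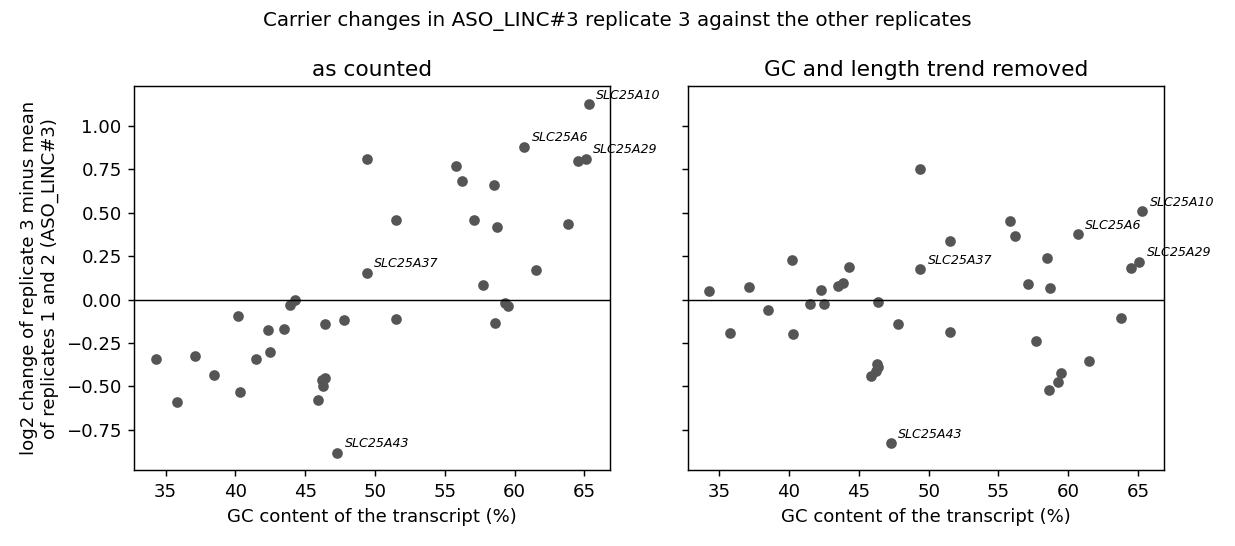
GC content of the canonical transcript (x axis, percent) against the log2 change of ASO_LINC#3 replicate 3 minus the mean of replicates 1 and 2 (y axis) for the 38 tested carriers, as counted (left) and after the GC and length trend of all genes was removed (right). On the left the points rise with GC content, with *SLC25A10*, *SLC25A6* and *SLC25A29* high and *SLC25A43* low, and on the right the slope is mostly gone while *SLC25A43* stays low.

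Proteins that work beside the carriers were read from lists of 84 genes, of which 78 were analysed and 75 tested. In these lists 6 genes (8%) were called, 3 higher and 3 lower, beside the same 7.54% over all genes. Of 22 tested genes listed as other mitochondrial membrane proteins, not named SLC25A, 4 were called, and 3 of those handle calcium. *MCUB*, listed as *CCDC109B*, is a paralog of the pore of the mitochondrial calcium uniporter that lowers its activity. It was at 70.2, 83.3 and 84.2 CPM in ASO_CTRL and at 181, 187 and 147 CPM in ASO_LINC#3 (log2 fold change 1.12, SE 0.14, edgeR adjusted p = 0.000597). *SLC8B1*, the exchanger that returns calcium to the cytosol, was at 16.6, 18.1 and 18.1 CPM in ASO_CTRL and at 39.2, 35.8 and 42.0 CPM in ASO_LINC#3 (log2 fold change 1.15, SE 0.15, edgeR adjusted p = 0.000567). *SMDT1*, a small subunit that the uniporter needs, went the other way, from 24.2 ± 0.90 to 14.5 ± 0.98 CPM (SD, n = 3 each; log2 fold change -0.75, SE 0.15, edgeR adjusted p = 0.00829). The groups of these 3 genes did not overlap. The fourth, *SFXN2*, a sideroflexin, fell from 5.39 ± 0.88 to 1.38 ± 0.79 CPM (SD, n = 3 each; log2 fold change -2.07, edgeR adjusted p = 0.00479).

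Of 4 tested genes of the carnitine system, *CPT1A*, which makes the acylcarnitine that *SLC25A20* takes up, rose from 18.6 ± 2.04 to 37.3 ± 6.03 CPM (SD, n = 3 each; log2 fold change 1.01, edgeR adjusted p = 0.00305). The other 3 had negative fitted changes, the lowest -0.473, and were not called. *CCDC109B* and *SLC8B1* were called in all 6 fits that dropped a library, with edgeR adjusted p of at most 0.00582 and 0.00671. *SFXN2*, *SMDT1* and *CPT1A* were each called in 1 of those fits, the one without ASO_LINC#3 replicate 3, and their highest edgeR adjusted p was 0.0263, 0.0445 and 0.0212. In 7 other lists no gene was called by edgeR at the threshold used. There, beside 32.4% of all genes, an unadjusted p below 0.05 was found in 1 of 3 outer membrane porins, 6 of 12 genes of carrier import, 1 of 4 of the malate-aspartate shuttle, 2 of 4 around citrate, 1 of 7 of iron and heme, 2 of 4 subunits of ATP synthase and 2 of 9 regulators of mitochondrial biogenesis. DESeq2 called 1 of the biogenesis regulators and none of the other genes in these lists, and limma-voom none.

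Promoters in the RefSeq table covered 35 of the 41 carriers with 45 windows, each of 250 bases before and 50 after a start (GRCh38.p14). Both strands were searched for the letters of 4 motifs. The E-box CACGTG, a site of MYC-family proteins, was in 17.8% of the carrier windows and in 7.27% of all 34961 windows. It was found for *SLC25A13*, *SLC25A22*, *SLC25A26*, *SLC25A33*, *SLC25A36*, *SLC25A38*, *SLC25A46* and *SLC25A51*, none of them called. Among the called carriers, only *SLC25A29* had a window, so this says little about the E-box and the calls. The NRF1 motif, the letters GCGC and TGCGC with any 1 base between them, was in 8.89% of carrier windows and 5.8% of all, the hypoxia element ACGTGC in 6.67% and 6.9%, and the amino acid response element TGATGNAA in 2.22% and 3.62%. The hypoxia letters can share the bases of an E-box. The CCAAT box, added after the *SLC25A29* sequence was seen, was in 46.7% and 34.6%. These matches describe letters in a window, and no binding was measured here.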

How the data were processed

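RNA-seq of H226 cells was analysed from 6 libraries, 3 of ASO_CTRL and 3 of ASO_LINC#3. Per the labels and the methods, the authors extracted total RNA, primed cDNA with dT oligonucleotides, aligned single-end reads to hg19 with STAR and tested genes with edgeR. They deposited raw read counts per gene name. How reads were assigned to genes, including annotation and strand, was not given in the sources used here. The totals of reads assigned to no gene, 24.84 to 28.08% of a library, entered neither library sizes nor tests. The deposited counts held 17222 gene names.

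The counts were scaled by TMM, filtered with filterByExpr, and fitted across all genes with the quasi-likelihood F-test of edgeR 4.0.16 in R 4.3.3 (two-sided), with condition as the term. P-values were adjusted by Benjamini-Hochberg over the 14660 genes tested, and calls required an adjusted p below 0.01 and a log2 fold change beyond 0.5, the thresholds of the study. CPM used the TMM-scaled library sizes. Gene positions, lengths and GC content came from GENCODE 44 lifted to GRCh37, with 13370 names matched, 973 of them by an older symbol, and 86.15% of tested genes had both length and GC content. The GC and length correction used splines of 5 degrees of freedom in each library. The fit was tested on simulated counts. Alternatives were run with DESeq2 1.42.0 and limma 3.58.1, other scalings and filters, the replicate number as a block, and each library left out.

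The carriers and lists were chosen with earlier results of these data known. Named were every called carrier, the 5 of highest CPM per kb, tested class partners of called carriers, called members of the lists, any carrier with an adjusted p below 0.05 or a log2 change beyond 1, and, after their values were seen, others said to be so. The values of 1 tested carrier and 1 called gene of the lists are not reported here, though both are in the counts.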

Additional observations from a re-analysis of the deposited data

How the results depend on the processing

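*SLC25A37* was called in every alternative run. Leaving out 1 library gave 1 to 6 carriers called (1 to 2 higher, 0 to 4 lower), 2 to 15 related genes called (2 to 7 higher, 0 to 8 lower) and 359 to 2616 genes called in all, against 1106. The upper ends came without ASO_LINC#3 replicate 3. In these fits the log2 fold change was 0.896 to 1.06 for *SLC25A37*, -1.58 to -1.11 for *SLC25A29* and -2.64 to -1.98 for *SLC25A35*, and the difference in the ratio of *SLC25A37* to *SLC25A28* was 1.37 to 1.5. Same-numbered libraries did not deviate together, with correlations of 0.059, -0.149 and -0.18, so the numbers were not taken to pair them. The GC trend was not removed from these deviations, so they cannot exclude a pairing. With a replicate block, 1 carrier was called (0 lower), 1 related gene was called lower (*SFXN2*, with *SMDT1* not called) and 656 genes were called in all. *SLC25A29* (-1.3, edgeR adjusted p = 0.0193) and *SLC25A35* (-2.28, edgeR adjusted p = 0.0164) were then not called. With the block and the GC and length correction together, *SLC25A29* (edgeR adjusted p = 0.00504) and *SLC25A35* (edgeR adjusted p = 0.00868) were called, beside 1215 of all genes. The filter of at least 10 counts in every library left 1 carrier called lower, since *SLC25A35* was not tested. DESeq2 called 6 related genes higher, the GC and length correction 5, and an adjusted p of 0.05 gave 11 (6 higher, 5 lower). These settings also called more of all 14660 genes. DESeq2 called 963 higher and 1597 in all, and the GC correction 961 and 1732. At an adjusted p of 0.05, 1422 passed as higher and 2465 in all. The main fit called 720 higher and 1106 in all.

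Sign changed only for carriers near 0: *SLC25A38* to -0.00322 with upper-quartile scaling, -0.0185 with limma-voom, -0.0258 with the GC correction and -0.0309 with the block as well, *SLC25A4* to -0.0363 and -0.0308, *SLC25A30* to -0.0274 and -0.0532 under the last pair of settings, and *SLC25A33* to -0.00227 under the last. Leaving out a library took these through 0, as it did others: the ranges were -0.0437 to 0.0742 (*SLC25A4*), -0.495 to 0.226 (*SLC25A10*), -0.0537 to 0.235 (*SLC25A25*), -0.19 to 0.0893 (*SLC25A26*), -0.224 to 0.236 (*SLC25A30*), -0.0219 to 0.219 (*SLC25A33*), -0.124 to 0.205 (*SLC25A38*) and -0.132 to 0.126 (*SLC25A46*). The cause was not tested. Depth limits the lowest tested carriers: *SLC25A35* and *SLC25A45* had at most 27 and 19 reads in a library.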
